A study of Mus musculus with 8 samples.

Results

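The interleukins IL-10, IL-15, IL-27 and IL-6 and the receptor chains that read them were followed in mouse bone marrow-derived macrophages (BMDMs) after knockdown of MAARS, a long non-coding RNA of macrophages. The set held 9 genes taken by name, with earlier results of these data known, which are Il10, Il15 and Il27 for the cytokines and Il10ra, Il10rb, Il15ra, Il6ra, Il6st and Il13ra1 for the receptor chains. All 9 were found among the 49315 genes counted, and all 9 were among the 13051 genes with enough counts to be tested. The macrophages were differentiated from the marrow of C57BL/6 mice with macrophage colony-stimulating factor at 10 ng/ml. They were transfected with a gapmeR, at 25 nM by the sample labels where the methods give the unit as nmol, a short antisense oligonucleotide that makes RNase H cut the RNA it pairs with. The control group received a control gapmeR (4 libraries, replicates 2, 5, 6 and 7) and the knockdown group a MAARS gapmeR (4 libraries, replicates 9, 11, 13 and 15). Both groups thus went through transfection, and the culture conditions given are the same for both. The genotype beyond the strain and the age and sex of the animals are not given in the sources used here. The labels do not say whether the libraries of a group came from separate animals or cultures, so p-values measure the spread between these libraries, which may be technical.

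A macrophage both sends and receives these cytokines. IL-10 is the main cytokine by which macrophages hold back their own inflammatory genes, and it acts through a ligand-binding chain (Il10ra) and a chain shared with IL-22 and the lambda interferons (Il10rb). IL-15 is held on the surface of the cell that makes it by its receptor alpha chain (Il15ra), which presents it to T cells and NK cells. IL-27, built from the product of Il27 and that of Ebi3, and IL-6, bound by Il6ra, both signal through the shared transducer gp130, the product of Il6st. Il13ra1 pairs with the IL-4 receptor alpha chain to form a receptor that binds IL-13 and IL-4 on macrophages. All of these receptors pass their signal through Janus kinases (JAK) to STAT transcription factors.

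The libraries held 19287279 to 20567123 counts on genes in the control group and 20839671 to 24541205 in the MAARS gapmeR group, so each MAARS gapmeR library was deeper than each control library. Values are counts scaled to a common library total with TMM factors (CPM), and a gene was called when edgeR's quasi-likelihood test gave an adjusted p under 0.05 over the 13051 genes. The targeted gene, listed as Gm14461, was at 12.2, 15.1, 12.98 and 12.2 CPM in the control libraries and 7.71, 6.41, 7.31 and 5.85 CPM in the MAARS gapmeR libraries, and the log2 fold change was -0.95 (SE 0.112, adjusted p = 5.8e-05 by edgeR). Of 8 macrophage markers, 5 rose (Csf1r, Itgam, Mertk, Lyz2 and Cd14), 2 fell and Adgre1 was not called. Those that fell were Cd68 (log2 fold change -0.34) and Fcgr1 (log2 fold change -2.09). Among all tested genes, 21.3% were called higher and 24.0% lower. Fcgr1 was at 594.5 to 992.2 CPM in control libraries and 151.2 to 249.1 CPM with MAARS gapmeR. The summed level of the 8 markers was 13836 to 17118 CPM in control libraries and 17011 to 20241 CPM with MAARS gapmeR. Of the markers that define T cells, Cd3g had 0 counts in all 8 libraries, which allows up to 3 counts in each, and Cd3e had 0 to 2. Cd28, on the T cell and NK cell list, was at 207.1 to 302.6 CPM, which left almost nothing of that list's sum of 207.4 to 302.7 CPM to the other 8 markers, and it was not called. The summed level of 5 B cell markers was 1.38 to 2.46 CPM in controls and 1.37 to 1.91 CPM with MAARS gapmeR, and that of 6 dendritic cell markers was 1.48 to 3.30 and 1.32 to 1.67 CPM. The summed level of 9 neutrophil and mast cell markers was 52.6 to 160.2 CPM in controls, highest in replicate 7, and 52.5 to 82.8 CPM with MAARS gapmeR, and that of 7 fibroblast and endothelial markers was 439.9 to 1010 and 693.7 to 1195 CPM. Col1a1 and Col1a2 made up almost all of this last sum, at 213.6 to 484.4 and 221.7 to 514.2 CPM in controls. With MAARS gapmeR they were at 344.9 to 580.9 and 343.2 to 606.1 CPM. Their log2 fold changes were 0.38 and 0.31, and those of Dcn and Cdh5 on the same list were -0.79 and -0.69. None of the 12 tested markers on these last lists was called. The part of any of these lists in the results was not tested.

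All 3 cytokine genes and 3 of the 6 receptor genes were lower with MAARS gapmeR, 1 receptor gene was higher, and the others are given by their values. Il10, Il15, Il27, Il15ra, Il6st and Il13ra1 fell, Il6ra rose, and Il10ra and Il10rb were not called. That is 7 of 9 members called, where 45.4% of all tested genes were called. The 6 members that fell stand beside 24.0% of tested genes called lower, and the 1 that rose beside 21.3% called higher. In 5 of the 9, namely Il10, Il15, Il27, Il15ra and Il13ra1, the values of the 4 control libraries and the 4 MAARS gapmeR libraries did not overlap, which was so for 42.1% of all tested genes. The median log2 fold change of the members was -0.75, and that of all tested genes was 0.01. In these bulk libraries, fewer cells of a type and less RNA per cell cannot be told apart. With only a MAARS gapmeR group and a control gapmeR group, effects of losing MAARS and other effects of its oligonucleotide cannot be told apart either.

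**Figure D1:**
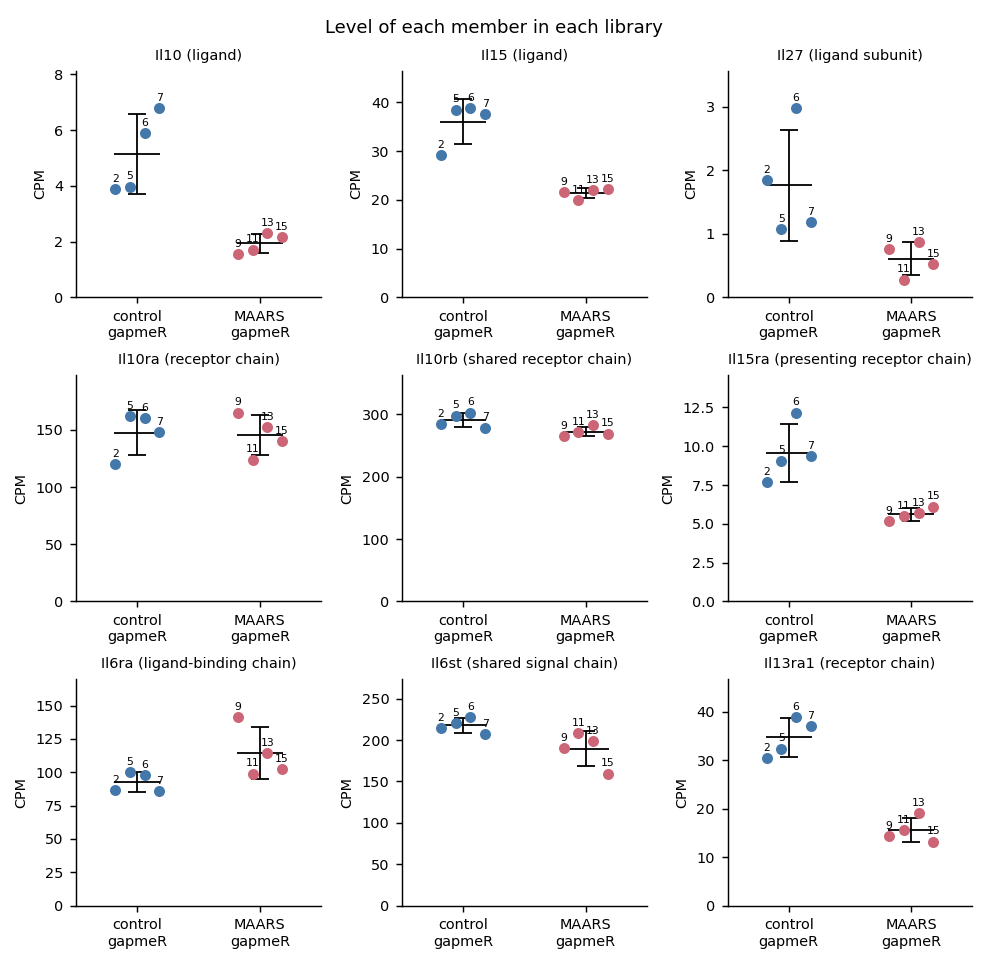
Level of each of the 9 genes in each library in CPM (one panel a gene, linear axis from 0), with control gapmeR and MAARS gapmeR libraries as points marked by replicate number and the group mean ± SD (n = 4). The points of the groups are apart for Il10, Il15, Il27, Il15ra and Il13ra1 and overlap for Il10ra, Il10rb, Il6ra and Il6st.

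Among the cytokine genes, Il10 (ENSMUSG00000016529, chromosome 1, 131019845 to 131024974, plus strand, with GRCm38 coordinates as for all genes) had 76, 78, 109 and 138 counts in control replicates 2, 5, 6 and 7 and 33, 43, 50 and 50 counts in MAARS gapmeR replicates 9, 11, 13 and 15. This was 3.89, 3.97, 5.90 and 6.78 CPM against 1.56, 1.71, 2.298 and 2.17 CPM. Control replicates 6 and 7 were the high ones, and even the lowest control library lay above the highest MAARS gapmeR library. The mean fell from 5.13 ± 1.43 to 1.93 ± 0.354 CPM (SD, n = 4 per group), and the log2 fold change was -1.41 (SE 0.22, 95% confidence interval -1.89 to -0.92, adjusted p = 0.000382 by edgeR), or a decrease by 62.3%. Without control replicate 7, which was highest both in Il10 and in the sum of neutrophil and mast cell markers, the log2 fold change was -1.24 (adjusted p = 0.00112 by edgeR).

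Il15 (ENSMUSG00000031712, chromosome 8, 82331632 to 82403222, minus strand) was at 29.1, 38.5, 38.8 and 37.6 CPM in the control libraries and 21.6, 19.9, 22.01 and 22.2 CPM in the MAARS gapmeR libraries. Control replicate 2 stood below the other 3 controls and still above all MAARS gapmeR libraries, which lay close together. The mean fell from 36.0 ± 4.61 to 21.4 ± 1.05 CPM (SD, n = 4 per group), and the log2 fold change was -0.75 (SE 0.0898, 95% confidence interval -0.95 to -0.55, adjusted p = 6.25e-05 by edgeR).

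Il27 (ENSMUSG00000044701, chromosome 7, 126589010 to 126594941, minus strand), the gene of the p28 chain of IL-27, was the member with the fewest reads, with 36, 21, 55 and 24 counts in the control libraries and 16, 7, 19 and 12 counts in the MAARS gapmeR libraries. These were 1.84, 1.07, 2.97 and 1.18 CPM and 0.757, 0.279, 0.873 and 0.520 CPM. The lowest control library and the highest MAARS gapmeR library were close to each other, and the control libraries spread widely. The log2 fold change was -1.55 (SE 0.405, 95% confidence interval -2.43 to -0.66, adjusted p = 0.00917 by edgeR), so its size is known less well than that of Il10 or Il15. Of the exonic bases of Il27, 10.1% overlap Apobr on the opposite strand, which had 3269 to 4794 counts per library and itself fell by 0.49 on the log2 scale (adjusted p = 1.41e-05 by edgeR). Whether the counting used the strand is not stated, so reads of Apobr among those of Il27 cannot be told apart.

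IL-6 itself was almost absent as RNA. Il6 had 1, 1, 3 and 5 counts in the control libraries and 0 in each MAARS gapmeR library, which allows up to 3 counts in each, and it was too low to test.

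The IL-10 receptor genes, the most abundant of the set per kb of exon, were not called. Il10ra (ENSMUSG00000032089, chromosome 9, 45253837 to 45269149, minus strand) was at 120.1, 162.2, 160.3 and 147.6 CPM in controls and 165.0, 123.9, 152.6 and 140.0 CPM with MAARS gapmeR. The lowest and the highest values of the 8 came from different groups, and the log2 fold change was -0.02 (SE 0.103, 95% confidence interval -0.25 to 0.20, adjusted p = 0.879 by edgeR). Its sign was not stable, and with upper-quartile factors it was 0.04. Il10rb (ENSMUSG00000022969, chromosome 16, 91406164 to 91425834, plus strand) was at 284.3, 297.7, 302.5 and 278.3 CPM in controls and 265.4, 271.8, 282.1 and 268.8 CPM with MAARS gapmeR. MAARS gapmeR replicate 13 lay above control replicate 7, and the log2 fold change was -0.10 (SE 0.044, 95% confidence interval -0.19 to 0.00, adjusted p = 0.0975 by edgeR). Of its exonic bases, 14.9% overlap Gm21970 on the same strand, a gene with 0 or 1 counts per library. The intervals of both receptor chains thus reach no farther than -0.25 on the log2 scale, where Il10 had -1.41.

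Il15ra (ENSMUSG00000023206, chromosome 2, 11705290 to 11734317, plus strand), the chain that presents IL-15, fell alongside its ligand. It was at 7.68, 9.07, 12.2 and 9.38 CPM in controls and 5.16, 5.49, 5.70 and 6.11 CPM with MAARS gapmeR. All controls were above all MAARS gapmeR libraries, with control replicate 6 the highest. The mean fell from 9.57 ± 1.88 to 5.61 ± 0.4 CPM (SD, n = 4 per group), and the log2 fold change was -0.77 (SE 0.138, 95% confidence interval -1.07 to -0.46, adjusted p = 0.000966 by edgeR), close in size to the -0.75 of Il15.

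Il13ra1 (ENSMUSG00000017057, chromosome X, 36112110 to 36171259, plus strand) had the smallest p of the members. It was at 30.4, 32.4, 38.9 and 37.0 CPM in controls and 14.4, 15.6, 19.1 and 13.2 CPM with MAARS gapmeR. The lowest control library was well above the highest MAARS gapmeR library. The mean fell from 34.7 ± 3.96 to 15.6 ± 2.53 CPM (SD, n = 4 per group), and the log2 fold change was -1.16 (SE 0.114, 95% confidence interval -1.41 to -0.91, adjusted p = 1.68e-05 by edgeR), or a decrease by 55.1%.

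The pair of chains of the IL-6 receptor moved in opposite directions, each by a small amount and with overlapping groups. Il6ra (ENSMUSG00000027947, chromosome 3, 89864059 to 89913196, minus strand), which binds IL-6, was at 86.9, 100.4, 97.9 and 85.8 CPM in controls and 141.6, 99.0, 114.4 and 102.1 CPM with MAARS gapmeR. MAARS gapmeR replicate 9 stood highest, as it did for Il10ra, and replicate 11 lay within the controls. The log2 fold change was 0.30 (SE 0.103, 95% confidence interval 0.07 to 0.53, adjusted p = 0.0341 by edgeR), or an increase by 23.1%. This call was lost when control replicate 2, control replicate 7, MAARS gapmeR replicate 9 or MAARS gapmeR replicate 13 was left out (adjusted p = 0.066, 0.0856, 0.0729 and 0.0645 by edgeR), and without MAARS gapmeR replicate 9 the log2 fold change was 0.18.

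Il6st (ENSMUSG00000021756, chromosome 13, 112464070 to 112510086, plus strand), the transducer gp130 shared by IL-6, IL-27 and leukemia inhibitory factor, was at 214.7, 220.3, 228.1 and 207.6 CPM in controls and 190.5, 208.0, 199.0 and 159.4 CPM with MAARS gapmeR. Replicate 15 was the lowest and replicate 11 lay just inside the controls. The log2 fold change was -0.20 (SE 0.0732, 95% confidence interval -0.36 to -0.04, adjusted p = 0.042 by edgeR). The call was lost with upper-quartile factors (-0.14, adjusted p = 0.128 by edgeR). It was also lost without control replicate 2, 5 or 6 or MAARS gapmeR replicate 9 or 15, and without replicate 15 the log2 fold change was -0.13 (adjusted p = 0.0735 by edgeR).

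Promoter windows, from 250 bases before to 50 bases after a start site, were taken from RefSeq on GRCm38.p6 and were found for 4 of the 9 members, with 2 start sites for Il15ra and 1 each for Il6ra, Il6st and Il13ra1. Il10, Il10ra, Il10rb, Il15 and Il27 had none in the table used. The windows were searched on both strands for the core of the interferon-stimulated response element (ISRE), GAAANNGAA, for the STAT site called GAS, TTCNNNGAA, and for the ETS-IRF composite element, GGAANNGAA. The ISRE core and the composite differ only at their second letter, and the GAS is its own reverse complement. These letters are common, since 8.56%, 8.30% and 8.24% of all 32851 windows hold them. The first Il15ra window held the ISRE core on the opposite strand at -149 to -141 from the start site, the second held it on the gene's own strand at 30 to 38, and the Il6st window held the composite on the opposite strand at -223 to -215. The windows of Il6ra and Il13ra1 held none of the 3 motifs. The sequences of Il15ra and Il13ra1 are shown because these were the 2 members with a window whose groups did not overlap. The first is the upstream part of the first Il15ra window, chr2:11705043-11705292 on the plus strand, with the match in capitals as it reads on that strand. The second surrounds the match after the second Il15ra start site, chr2:11705732-11705760, again in capitals. The third is the same upstream stretch of Il13ra1, chrX:36111858-36112107 on the plus strand, with no match and a GC content of 70.8% against 52.8% for Il15ra.
Il15ra, upstream of the first start site: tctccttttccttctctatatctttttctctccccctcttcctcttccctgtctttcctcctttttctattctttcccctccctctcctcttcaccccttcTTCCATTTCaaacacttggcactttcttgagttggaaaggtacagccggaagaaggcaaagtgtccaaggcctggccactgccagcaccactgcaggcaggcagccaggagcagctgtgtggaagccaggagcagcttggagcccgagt
Il15ra, after the second start site: aagcaaaagcGAAAGCGAAtactccttag
Il13ra1, upstream of the start site: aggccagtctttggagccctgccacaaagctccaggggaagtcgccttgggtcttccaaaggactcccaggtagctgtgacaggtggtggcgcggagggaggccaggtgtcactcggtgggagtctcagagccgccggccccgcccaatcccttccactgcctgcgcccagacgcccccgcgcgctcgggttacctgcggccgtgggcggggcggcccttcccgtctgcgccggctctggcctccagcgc
A match is a run of letters in a window, and no binding was measured here.

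Levels of different genes were compared per length, as CPM per kb of exon. In control libraries the order was Il10rb at 76.3 ± 2.96, Il10ra at 42.2 ± 5.55, Il6st at 19.6 ± 0.78, Il15 at 15.9 ± 2.04 and Il6ra at 10.7 ± 0.865 CPM per kb (SD, n = 4 per group). Il13ra1 followed at 9.35 ± 1.07, Il10 at 3.92 ± 1.09, Il15ra at 2.15 ± 0.423 and Il27 at 1.73 ± 0.857 CPM per kb (SD, n = 4 per group). The ranges of neighbours overlapped between Il6ra and Il13ra1 and between Il15ra and Il27, and the other neighbours were apart in all 4 libraries. With MAARS gapmeR, Il10rb was at 71.4 ± 1.9, Il10ra at 41.6 ± 5.03, Il6st at 17.0 ± 1.9, Il6ra at 13.2 ± 2.24 and Il15 at 9.48 ± 0.464 CPM per kb (SD, n = 4 per group). Il13ra1 was at 4.20 ± 0.682, Il10 at 1.48 ± 0.27, Il15ra at 1.26 ± 0.0899 and Il27 at 0.595 ± 0.258 CPM per kb (SD, n = 4 per group). Il15 thus stood above Il6ra in the order of the control group and below it in that of the MAARS gapmeR group, and the neighbours whose ranges overlapped there were Il6st and Il6ra, and Il10 and Il15ra.

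**Figure D2:**
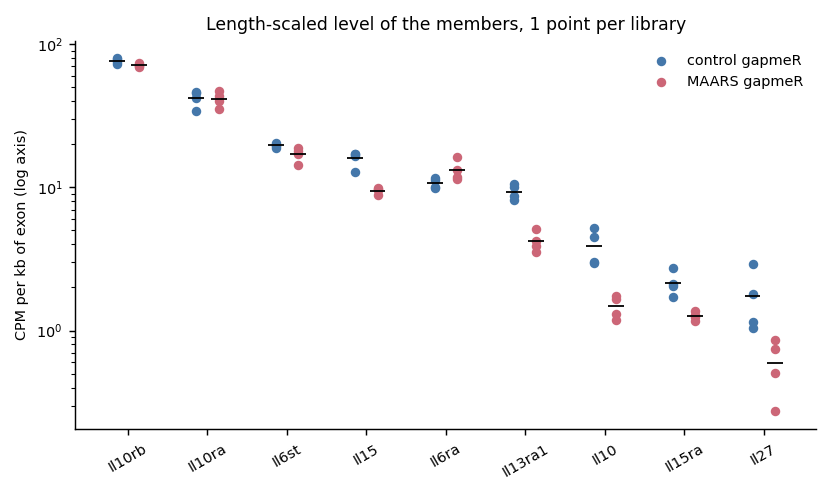
CPM per kb of exon (log axis) of the 9 genes in each library, with group means (n = 4). The IL-10 receptor genes are at the top in both groups, at 76.3 and 42.2 CPM per kb in controls, and Il27 is at the bottom, at 1.73 CPM per kb.

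To ask whether chains that work together kept their proportion, 4 ratios of CPM per kb were formed within each library and compared by a two-sided exact permutation test over the 70 splits of 4 and 4 libraries, with Benjamini-Hochberg adjustment over the 4. The ratio of Il10ra to Il10rb was 0.552 ± 0.0618 in controls and 0.582 ± 0.0744 with MAARS gapmeR (SD, n = 4 per group, exact p = 0.571, adjusted p = 0.762). That of Il15ra to Il15 was 0.135 ± 0.0174 and 0.133 ± 0.00899 (SD, n = 4 per group, exact p = 0.914, adjusted p = 0.914), with a log2 difference of -0.01.

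The ratio of Il6ra to Il6st was 0.520, 0.585, 0.552 and 0.531 in the control libraries and 0.955, 0.611, 0.738 and 0.822 in the MAARS gapmeR libraries. The groups did not overlap, with a log2 difference of 0.50 (exact p = 0.0286, the smallest that 4 against 4 allow, adjusted p = 0.0571). The ratio of Il13ra1 to Il4ra was 0.251, 0.238, 0.193 and 0.181 in controls and 0.119, 0.139, 0.147 and 0.103 with MAARS gapmeR. These groups did not overlap either, with a log2 difference of -0.77 (exact p = 0.0286, adjusted p = 0.0571). Neither ratio passed 0.05 after adjustment, which needs at least 3 of the 4 ratios to reach that smallest p.

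**Figure D3:**
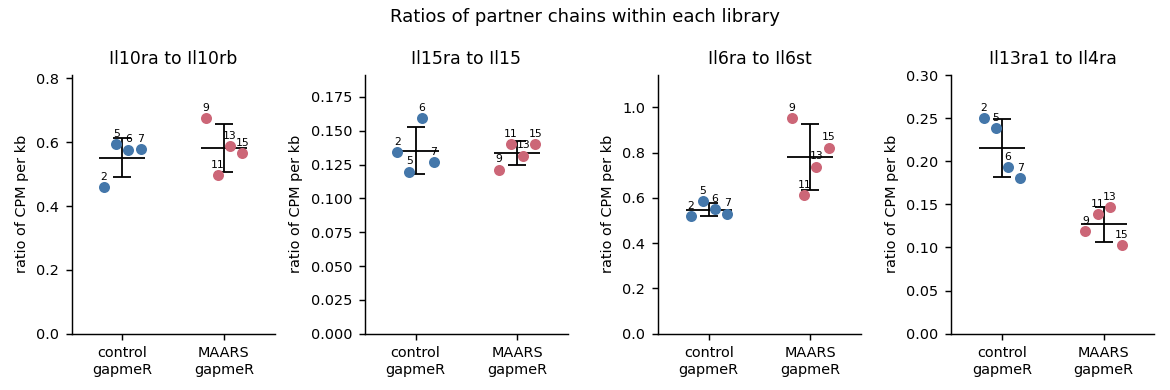
Ratio of CPM per kb of exon within each library for 4 pairs of genes (linear axis), with control gapmeR and MAARS gapmeR libraries as points and the group mean ± SD (n = 4). The groups are apart for Il6ra to Il6st (0.547 and 0.782) and Il13ra1 to Il4ra (0.216 and 0.127) and overlap for Il10ra to Il10rb and Il15ra to Il15.

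The genes that work with these members were read from 11 lists, which held 104 genes in all. Of these, 72 were tested, 12 were called higher and 30 lower, and their median log2 fold change was -0.14. The shares called among all tested genes given above apply to each count that follows.

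Of 8 genes on the list of IL-15 receptor partners, 4 were tested, 3 fell and none rose. That list also holds genes of the IL-7 and IL-21 receptors. Il2rg, the common gamma chain that signals for IL-15, IL-4, IL-7 and IL-21, was at 73.1, 84.3, 114.5 and 107.6 CPM in controls and 33.6, 34.9, 44.3 and 35.7 CPM with MAARS gapmeR. Control replicates 6 and 7 were high here too, and the groups were far apart, with a log2 fold change of -1.35 (SE 0.137, adjusted p = 1.93e-05 by edgeR). Of its exonic bases, 30.5% overlap Gm20489 on the same strand. Il21r, the IL-21 receptor, fell from 85.0 ± 20.5 to 51.5 ± 3.46 CPM (SD, n = 4 per group, log2 fold change -0.72), and Il7r, the IL-7 receptor alpha chain, fell from 236.1 ± 11.4 to 199.4 ± 3.83 CPM (SD, n = 4 per group, log2 fold change -0.24). Il7, the ligand of Il7r, showed a log2 fold change of -0.30 with an adjusted p of 0.58 by edgeR, and without 1 library it lay between -0.72 (without MAARS gapmeR replicate 11) and -0.06 (without MAARS gapmeR replicate 9). Il2rb, the beta chain that a cell needs to respond to IL-15, had 0 to 15 counts per library and was not tested.

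Of 8 partners in the IL-27 and IL-12 family, 3 were tested and 2 fell. Ebi3, the other chain of IL-27, was at 40.6 to 43.9 CPM in controls and 29.6 to 36.2 CPM with MAARS gapmeR, and the log2 fold change was -0.39 (SE 0.0668, adjusted p = 0.000772 by edgeR), against -1.55 for Il27. Of its exonic bases, 23.4% overlap Gm16712 on the opposite strand. Il12rb1, a chain of the IL-12 and IL-23 receptors, was at 3.23, 5.45, 7.52 and 7.12 CPM in controls and 1.84, 1.19, 1.06 and 1.65 CPM with MAARS gapmeR, and the log2 fold change was -2.02 (SE 0.277, adjusted p = 0.00016 by edgeR). Il12rb2, the other chain of the IL-12 receptor, showed a log2 fold change of -0.23 (adjusted p = 0.0552 by edgeR), and it passed the threshold without control replicate 7 (-0.29, adjusted p = 0.0184 by edgeR). Serbp1 on the opposite strand overlaps 40.0% of the exonic bases of Il12rb2, so with the strand setting unknown reads of the other gene may be among its counts. The IL-27 receptor chain Il27ra had 5 to 16 counts per library and was not tested.

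Of 14 partners in the IL-6 family, 9 were tested, 3 rose and none fell. Lifr, the receptor of leukemia inhibitory factor, which signals together with gp130, rose from 4.95 ± 0.646 to 8.08 ± 0.894 CPM (SD, n = 4 per group) with no overlap, and the log2 fold change was 0.71 (SE 0.126, adjusted p = 0.000944 by edgeR). Adam10, a protease that can shed the IL-6 receptor from the surface, rose from 226.7 ± 16.1 to 261.2 ± 11.4 CPM (SD, n = 4 per group, log2 fold change 0.20, adjusted p = 0.0132 by edgeR). Adam17, also on this list, was not called (log2 fold change 0.10, adjusted p = 0.292 by edgeR). Clcf1, a cytokine of this family, showed a log2 fold change of 0.84 (adjusted p = 0.0376 by edgeR) at 0.586 ± 0.238 and 1.06 ± 0.177 CPM (SD, n = 4 per group). That call was lost with DESeq2, with no filter, and without control replicate 2, 5 or 6 or MAARS gapmeR replicate 11, 13 or 15 (adjusted p up to 0.0985). Il11ra1, the IL-11 receptor alpha chain, had -0.16 (adjusted p = 0.0801 by edgeR), and it passed the threshold without MAARS gapmeR replicate 15 (-0.21, adjusted p = 0.0413 by edgeR). Of 9 partners in the IL-10 family, 4 had 0 counts in all libraries and 1 was tested, Il20rb, whose log2 fold change was -0.01 and changed sign with the scaling (0.05 with upper-quartile factors).

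Of 4 partners of IL-4 and IL-13, 2 were tested, 1 with each direction. Il4ra, the chain that pairs with Il13ra1, was at 196.3, 220.1, 325.9 and 331.3 CPM in controls and 195.3, 182.0, 210.4 and 208.4 CPM with MAARS gapmeR. Control replicates 6 and 7 stood well above all MAARS gapmeR libraries, control replicate 5 just above them and control replicate 2 among them. The log2 fold change was -0.43 (SE 0.149, adjusted p = 0.0344 by edgeR), a call lost in 8 of 14 alternatives, among them DESeq2, upper-quartile factors, and the removal of control replicate 6 or 7 or of any MAARS gapmeR library. Il4 itself showed a log2 fold change of 0.55 (adjusted p = 0.0276 by edgeR) at 2.09 ± 0.474 and 3.08 ± 0.164 CPM (SD, n = 4 per group), a call lost without control replicate 6 (0.40, adjusted p = 0.0683 by edgeR), MAARS gapmeR replicate 9 or MAARS gapmeR replicate 13. The decoy receptor Il13ra2 had 0 or 1 counts per library.

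Among 10 JAK and STAT genes, 6 fell, 1 rose and 3 were not called. Stat3, the main STAT of IL-10 and IL-6, fell from 213.6 ± 26.1 to 163.8 ± 12.7 CPM (SD, n = 4 per group), and the log2 fold change was -0.38 (SE 0.084, adjusted p = 0.00338 by edgeR). Stat6, the STAT of IL-4 and IL-13, fell by 0.19 and Jak2 by 0.42 on the log2 scale, and Stat5b, which IL-15 uses, showed a log2 fold change of 0.27 and was the gene that rose.

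Among 10 inhibitors of receptor signalling, 4 fell, Socs2 rose and 5 were not called. Socs1, which blocks Janus kinases, was at 3.38, 4.18, 4.49 and 5.89 CPM in controls and 1.32, 1.95, 2.25 and 1.30 CPM with MAARS gapmeR, and the log2 fold change was -1.39 (SE 0.227, adjusted p = 0.000515 by edgeR). Socs3, which binds gp130 and is itself induced by IL-10 and IL-6, was at 3.17, 2.96, 5.52 and 5.80 CPM in controls and 4.21, 3.86, 6.34 and 5.59 CPM with MAARS gapmeR. Its groups overlapped, and the log2 fold change was 0.20 (SE 0.242, adjusted p = 0.536 by edgeR), with a range of 0.04 (without control replicate 5) to 0.37 (without control replicate 7) when 1 library was left out. The phosphatase genes Ptpn6, Ptpn2 and Ptpn11 fell by 0.55, 0.37 and 0.21 on the log2 scale.

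**Figure D4:**
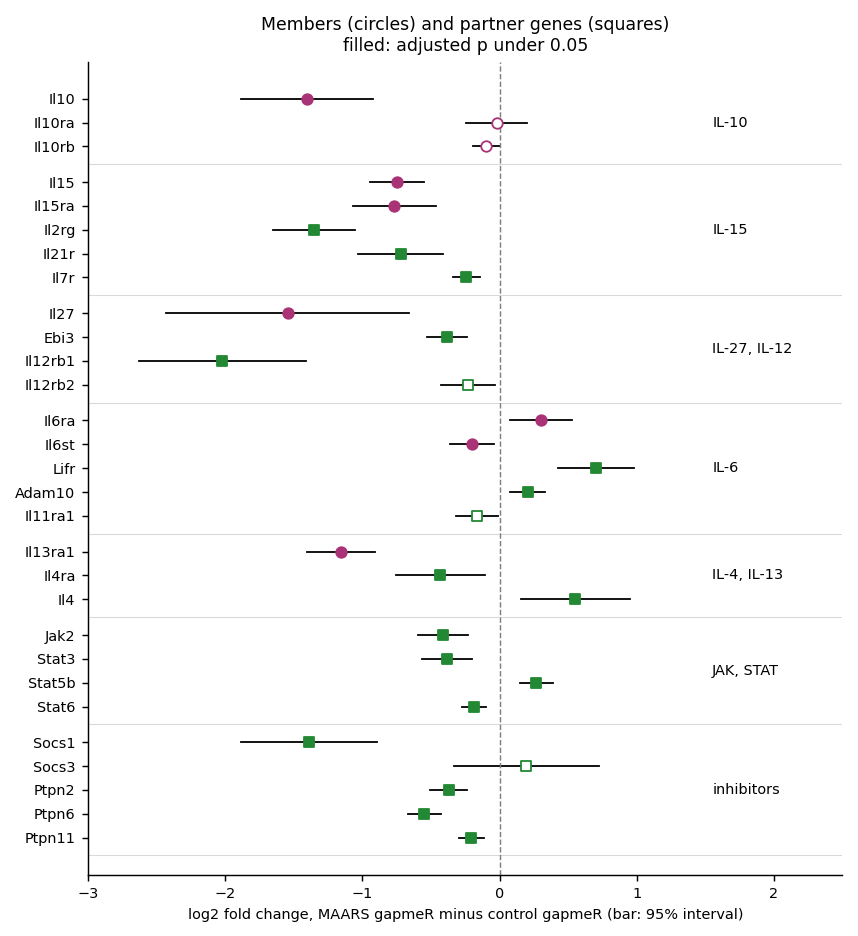
Log2 fold change (MAARS gapmeR against control gapmeR, edgeR) with 95% confidence intervals of the 9 members (circles) and of some of the partner genes (squares), grouped by axis and filled where the adjusted p was under 0.05. Il12rb1 (-2.02) and Il27 (-1.55) lie farthest below 0, the members Il10ra and Il10rb are open, and of the partner genes drawn here Lifr (0.71) lies farthest above 0.

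Of 9 genes known to be induced by IL-10 in macrophages, 6 fell and none rose, with a median log2 fold change of -0.43. Il4ra was among the 6, its value was also the median, and its call was lost in 8 of 14 alternatives. Il1rn, the IL-1 receptor antagonist, fell from 62.4 ± 5.56 to 38.3 ± 4.14 CPM (SD, n = 4 per group, log2 fold change -0.70, adjusted p = 6.02e-05 by edgeR). The transcriptional repressors Etv3 and Sbno2 fell by 0.55 and 0.47, and Zfp36, which destabilizes cytokine mRNA, by 0.38 on the log2 scale. Of 9 genes induced by IL-4 and IL-13, 4 were tested and 2 rose. Among those not tested, Retnla and Ccl17 had 0 counts in all libraries, which allows up to 3 counts in each. Arg1 and Ccl22 had 0 to 5 and 0 to 4 counts per library. Mrc1, the mannose receptor, rose from 673.0 ± 15.2 to 1164 ± 99.3 CPM (SD, n = 4 per group), and the log2 fold change was 0.79 (SE 0.0612, adjusted p = 5.45e-06 by edgeR), while Il13ra1 fell in the same libraries. Ccl24, an eosinophil chemokine, rose from 0.310 ± 0.117 to 1.11 ± 0.38 CPM (SD, n = 4 per group, log2 fold change 1.82, adjusted p = 0.00226 by edgeR). This rested on 3 to 8 counts per control library and 17 to 33 counts per MAARS gapmeR library. Chil3 and Cish were not called at log2 fold changes of -0.48 and 0.60 (adjusted p = 0.219 and 0.0913 by edgeR). Without 1 library the value of Chil3 lay between -0.71 (without control replicate 5) and -0.04 (without control replicate 7), and it was not called in either case. Many of these genes also answer to other signals.

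Of 13 transcription factors that act on these cytokine genes, 7 fell, 2 rose and 4 were not called. Maf, which drives Il10 in macrophages, rose from 512.8 ± 41.8 to 719.8 ± 51.2 CPM (SD, n = 4 per group) with no overlap, and the log2 fold change was 0.49 (SE 0.0684, adjusted p = 0.000182 by edgeR), while Il10 fell. Irf9, which joins STAT proteins in the interferon response, fell by 0.71, Batf by 0.67 and Spi1, the myeloid factor PU.1, by 0.39 on the log2 scale. Of 14 other class I and II cytokine receptors, 11 were tested, 2 rose and 2 fell. Epor, the erythropoietin receptor, and Ifnar1, an interferon receptor chain, had log2 fold changes of 1.14 and 0.29. Csf2rb2 fell by 0.45 and Ifngr2 by 0.22, and Csf2rb2 has a near-identical copy, Csf2rb (log2 fold change -0.01), between which the counting could have split reads. Other overlaps on the opposite strand included Il6ra (2.80% of exonic bases), Zfp36 (3.60%), Maf (5.34%), Ptpn6 (6.96%), Il4ra (9.51%), Cish (11.5%) and Csf1r (15.1%). Those on the same strand included Irf9 (2.28%), Clcf1 (8.17%) and Itgam (68.7%).

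For the 3 members with the smallest p, the genes most like them over the 8 libraries were found by Pearson's r of log2(CPM + 0.5). These were Gm6545 and Gm1966 for Il13ra1 (r = 0.998 and 0.997), Cmtm3 and Ist1 for Il15 (r = 0.994 and 0.991) and Gnl1 and Magohb for Il10 (r = 0.991 and 0.990). The libraries share the split into groups, and 1594, 1314 and 1293 genes had r above 0.9 with Il13ra1, Il15 and Il10, so these are descriptions of a common pattern.

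**Figure D5:**
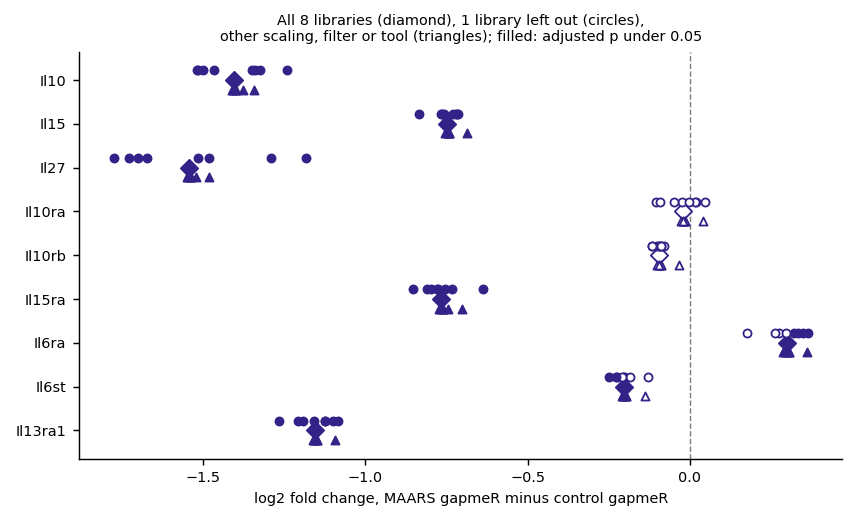
Log2 fold change of each of the 9 genes with all 8 libraries (diamond), with 1 library left out (circles) and under the other scalings, tools and filters (triangles), filled where the adjusted p was under 0.05. Il10, Il15, Il27, Il15ra and Il13ra1 stay below 0 and filled throughout, Il6ra stays above 0 between 0.18 and 0.36, and Il10ra falls on both sides of 0.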

How the data were processed

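Ribodepleted total RNA of BMDMs was sequenced in 8 libraries. Per the labels and the methods, the authors trimmed reads with Trimmomatic 0.36, aligned them with STAR 2.5.2b and counted them per gene with featureCounts (Subread 1.5.2), and the deposited values are these raw counts. The strand setting and the handling of reads with several positions are not given in the sources used here. Genes were kept by filterByExpr (minimum count 10, minimum total 15), scaled with TMM and tested with edgeR 4.0.16 (glmQLFit, glmQLFTest, Benjamini-Hochberg, adjusted p under 0.05) in R 4.3.3. DESeq2 1.42.0 and limma-voom 3.58.1 were alternatives, and the procedure was tested on simulated data. Annotation and exon lengths came from GENCODE M21 (99.5% of the genes in the count table found). Replicates of a group differed by a chi-square of 4.24 to 15.1 per gene, above sampling noise. The lowest value was that of control replicates 6 and 7, and the highest that of control replicates 2 and 6. The members and gene lists were chosen with earlier results of these data known. Besides members and MAARS, the genes named were those with the up to 4 smallest p in each partner list, 9 receptor, ligand and signalling genes set by name, and the 2 most correlated genes of 3 members. Socs2, Apobr, Csf2rb, Adam17, Arg1, Retnla, Ccl17 and Ccl22 were named after their values were seen. So were the markers Adgre1, Cd68, Fcgr1, Csf1r, Itgam, Mertk, Lyz2, Cd14, Cd3g, Cd3e, Cd28, Col1a1, Col1a2, Dcn and Cdh5. Counts of 0 and depth limits cover counting error only. Genes that these rules name and the text does not are not reported here.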

Additional observations from a re-analysis of the deposited data

Results flagged for a closer look

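Among 117 groups of 4 libraries examined for the named genes, 6 held a library far from the other 3 by Dixon's test, and chance gives about 1 such group in 20. Il15 was lowest in control replicate 2, at 29.1 CPM where the other controls were at 37.6 to 38.8 CPM. Il12rb2 was lowest in control replicate 7, at 13.9 CPM (others 16.7 to 16.8 CPM), and in MAARS gapmeR replicate 15, at 12.05 CPM (others 14.2 to 14.3 CPM). Adam10 was lowest in control replicate 7, at 202.5 CPM (others 234.1 to 235.6 CPM). Ptpn2 and Maf were both highest in MAARS gapmeR replicate 9, at 25.2 CPM (others 23.5 to 23.6 CPM) and 796.4 CPM (others 688.8 to 697.9 CPM).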

How the results depend on the processing

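The alternatives were DESeq2, limma-voom, upper-quartile or RLE factors, a minimum mean of 10 counts, no filter on low counts, and each library left out. Il10, Il15, Il27, Il15ra and Il13ra1 kept their direction and call in all of them, with log2 fold changes without 1 library of -1.52 to -1.24, -0.83 to -0.71, -1.78 to -1.18, -0.85 to -0.64 and -1.27 to -1.08. Without 1 library, Il6ra was at 0.18 to 0.36, Il6st at -0.25 to -0.13 and Il10ra at -0.10 to 0.0482, and 0 to 1 members were called higher. With upper-quartile factors Il6st was at -0.14, Il10ra at 0.0411 and Il20rb at 0.0483, and of the 6001 genes called 60.4% were higher, against 47.0% with TMM. Without control replicate 2, control replicate 6 or MAARS gapmeR replicate 13, Il20rb was at 0.0401, 0.0082 and 0.0472. The cause was not tested. Of 40 called genes named besides the members, 37 were called in every alternative, and Clcf1, Il4 and Il4ra were not. Ratios without 1 library were given no test, since the exact permutation test of 3 against 4 cannot go below p = 0.0571. No paired analysis was possible because the groups share no replicate number. Il27, at 7 to 55 counts per library, is the member that depth limits most.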
